A study of Mus musculus with 3 samples.

Results

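The cells described here were the CD8 T cells captured from mouse skin, 250 of 26847 cells in 3 droplet libraries. A cell was a barcode with at most 10% mitochondrial UMIs (unique molecular identifiers, each standing for 1 captured RNA molecule) and at least 200 genes. A CD8 T cell had a UMI in at least 2 of 5 T cell receptor genes (*Cd3d*, *Cd3e*, *Cd3g*, *Trac* and *Trbc2*) and at least 1 UMI of *Cd8a* or *Cd8b1*. It had no UMI of *Cd4* or of the gamma-delta receptor gene *Trdc*, and under 1% of its UMIs came from keratin genes. These genes chose the cells, so their own levels are given only as a description.

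Alopecia areata (AA) is a patchy hair loss in which T cells surround and attack the growing hair follicle. CD8 T cells recognise peptides on MHC class I molecules and kill with perforin and granzymes or act through interferon gamma. In skin, many of them are resident: they stay in the tissue, hold on to the epithelium through the integrin CD103 and shut down the receptors that lead other T cells back to lymph nodes. NKG2D, a natural killer receptor, marks the CD8 T cells long linked to this disease in mice and in people.

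All 3 libraries came from the back skin of female C3H/HeN mice aged 25 weeks, and each library pooled 7 to 8 mice. The Neg library was made from unaffected mice labelled as vehicle controls. The AA library came from mice given, into the skin, lymph node cells of AA-affected donors. Those donor cells had been expanded in culture with IL-2, IL-7, IL-15 and beads carrying antibodies to CD3 and CD28, and since donors and hosts are of 1 strain, donor and host T cells cannot be told apart. The AA+Ab library came from the same model with an antibody that neutralizes CXCL12, a chemokine that binds CXCR4 and ACKR3, and its dose and schedule are not given in the sources used here. The skin had been digested with collagenase and the cells passed through meshes and a Percoll gradient, so shares below are shares of captured cells, and fewer cells in the skin and poorer recovery cannot be told apart.

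With 1 library per group there was no replicate of any condition, and no p-value or error between mice can be given. Every interval below is a 95% interval for counting error only, and UMIs of 1 cell are not independent. Levels are CPM: the UMIs of a gene summed over the CD8 T cells of a library, divided by all their UMIs and multiplied by 1e+06. The Neg, AA and AA+Ab libraries held 6582, 10433 and 9832 cells, with medians of 13694.5, 11177 and 11371 UMIs. Their CD8 T cells held 56518, 875223 and 320570 UMIs, and their median depths were 4756, 3888.5 and 4233, so a level in the 11 Neg cells rests on few molecules. Between 17 and 28 barcodes were shared by any pair of libraries, and 2 CD8 T cells, 1 in Neg and 1 in AA+Ab, carried a shared barcode.

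CD8 T cells were more frequent in AA skin than in either other library. There were 11 in Neg, 0.167% of the cells (0.0835 to 0.299). In AA there were 182, or 1.74% (1.5 to 2.01), and in AA+Ab 57, or 0.580% (0.439 to 0.75). Their share was 10.4 times higher in AA than in Neg (5.70 to 21.3), 0.332 of the AA share in AA+Ab (0.242 to 0.45), and 3.47 times higher in AA+Ab than in Neg (1.80 to 7.34). The other T cell sets had another order. CD4 T cells (the same gate with *Cd4* and no *Cd8a* or *Cd8b1*) numbered 14, 26 and 44, a ratio of 1.17 between AA and Neg (0.590 to 2.43) and of 1.80 between AA+Ab and AA (1.08 to 3.04). Gamma-delta T cells numbered 150, 112 and 209, or 2.28%, 1.07% and 2.13% of the cells in Neg, AA and AA+Ab. Cells that met the gate apart from its *Cd8* and *Cd4* parts, gamma-delta T cells left out, numbered 75, 294 and 179. Of these, CD8 T cells made up 14.7% in Neg (7.56 to 24.7), 61.9% in AA (56.1 to 67.5) and 31.8% in AA+Ab (25.1 to 39.2).

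**Figure D1:**
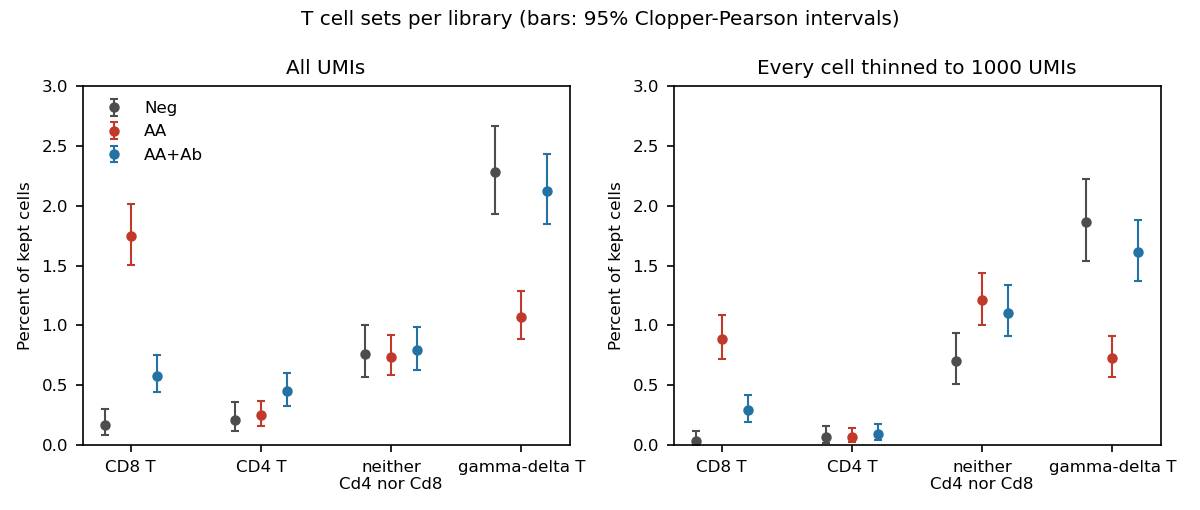
Share of cells in percent (vertical axes) for CD8 T cells, CD4 T cells, T cells with neither *Cd4* nor *Cd8* UMIs and gamma-delta T cells, by library (Neg grey, AA red, AA+Ab blue), with all UMIs on the left and with every cell thinned to 1000 UMIs on the right; bars are 95% Clopper-Pearson intervals. The AA point for CD8 T cells lies at 1.74% on the left and 0.889% on the right, above the other libraries in both panels.

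Depth changes how many T cells the gate can find, since a cell with few UMIs may show no *Cd8* molecule. When every cell was thinned to 1000 UMIs, which left out 290, 86 and 158 shallower cells, the gate found 2, 92 and 28 CD8 T cells, or 0.0318%, 0.889% and 0.289%. The order of the libraries was the same, with ratios of 28.0 for AA over Neg (7.53 to 234) and 0.326 for AA+Ab over AA (0.205 to 0.502). The plot of T cell sets shows both versions.

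The gate genes themselves were found at 425, 473 and 468 CPM for *Cd8a* in Neg, AA and AA+Ab, and at 248, 242 and 228 CPM for *Cd8b1*. At the edge of the gate in AA, the 10 members with only 2 of the 5 receptor genes had 435 CPM of *Nkg7*, a killer cell granule gene, and 1777 CPM of *Ptprc* (CD45). The 11 AA cells just outside, with 1 receptor gene, had 45.9 and 214 CPM. The 31 AA members with a lone *Cd8* UMI had 985 CPM of *Nkg7*, against 248 CPM in 77 AA T cells with no *Cd8* or *Cd4* UMI.

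T cell genes that the gate did not use were found throughout. All 18 of them, such as *Thy1*, *Lck* and *Cd2*, had UMIs in each library, and their summed level was 6617 CPM in Neg, 9815 in AA and 8510 in AA+Ab, against 183 to 247 CPM in cells with at least 1% keratin UMIs. Markers of other cells were low in most members but not at 0. The 8 non-keratin keratinocyte genes summed to 442, 1167 and 964 CPM, against at least 16248 CPM in the keratin-expressing cells. Macrophage and dendritic cell genes summed to 17.7, 901 and 81.1 CPM, and 1 AA cell held 540 of the 789 AA UMIs of that list. *Lyz2*, a defining macrophage gene, had no UMI in the Neg and AA+Ab members, and 47 UMIs in 4 AA members, 27 of them in 1 cell. Fibroblast genes summed to 35.4, 184 and 90.5 CPM, with 127 of 161 AA UMIs in 1 cell, and melanocyte genes to 283, 112 and 234 CPM. Gamma-delta genes summed to 88.5, 193 and 81.1 CPM, and natural killer and innate lymphoid genes to 0, 115 and 109 CPM. B cell, neutrophil, mast cell, muscle and endothelial, and erythroid genes each summed to at most 53.1 CPM, except muscle and endothelium at 548, 84.5 and 74.9 CPM. *Foxp3*, of regulatory T cells, had 0, 15 and 3 UMIs.

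In AA skin the CD8 T cells carried more transcript of tissue retention, interferon gamma, chemokine and T-bet genes than the few in control skin, and less of the genes of circulating T cells. In AA+Ab skin, where they were fewer, *Itgae*, *Cd69*, *Rgs2*, *Cd101*, *Ifng* and *Ccl4* stood close to AA, *Cxcr6*, *Itga1* and *Runx3* were between 0.523 and 0.569 of it, and *Gzmb*, *Havcr2*, *Pdcd1* and *Tbx21* were lower, while *Lef1*, *Ccr7*, *S1pr1* and *Cxcr4* were higher. CD4 T cells also had more summed residency transcript in AA than in Neg, at 2672 against 1430 CPM. The same held for their effector cytokine genes (1978 against 626 CPM) and chemokine genes (1122 against 232 CPM). *Ifng* in CD4 T cells was at 31.0 CPM in AA and 26.8 in Neg. A gene counted as higher or lower when its levels differed at least 2-fold with an interval that excluded 1, given at least 20 UMIs in both libraries together and 5 cells in the library where it was higher. Of 4677 genes measured between AA and Neg, 394 were higher in AA (8.42%) and 138 lower (2.95%), and the median log2 ratio was 0.40. Of 6603 genes measured between AA+Ab and AA, 258 were higher in AA+Ab (3.91%) and 319 lower (4.83%), with a median of -0.05. Between AA+Ab and Neg, 243 of 2861 were higher (8.49%) and 92 lower (3.22%), with a median of 0.43. The cell minimum was harder to meet for genes higher in Neg, where it asked for 5 of 11 cells, than for genes higher in AA, where it asked for 5 of 182, so counts with few or no lower genes are tilted by it. With 5 UMIs in all and no cell minimum the counts were 395 higher and 245 lower between AA and Neg, 501 and 335 between AA+Ab and AA, and 250 and 177 between AA+Ab and Neg.

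The split between higher and lower genes against Neg depended on the scale. Ribosomal protein genes held 32.0% of the UMIs of CD8 T cells in Neg, 16.6% in AA and 20.8% in AA+Ab, and 29 of 86 of them were among the genes lower in AA. With mitochondrial, ribosomal, hemoglobin and keratin genes left out of the denominator, all log2 ratios moved by -0.30 for AA over Neg and by -0.23 for AA+Ab over Neg, and the splits became 225 higher and 255 lower, and 147 higher and 148 lower. Levels against Neg are read beside these shifts. The 3 comparisons share libraries and are not independent of each other.

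**Figure D2:**
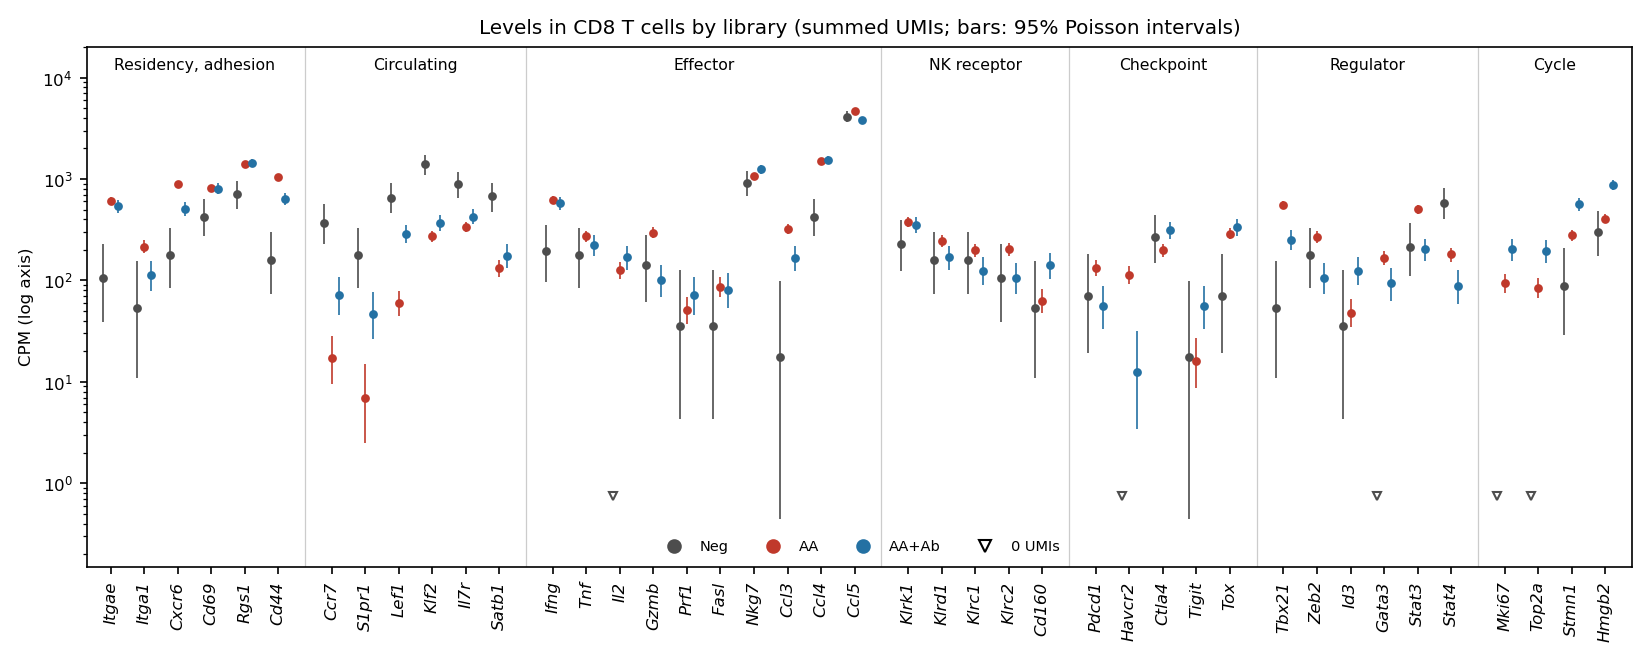
Levels of named genes in the CD8 T cells of each library (Neg grey, AA red, AA+Ab blue) in CPM on a log axis; points are summed UMIs, bars are 95% Poisson intervals, and open triangles mark 0 UMIs. *Itgae* and *Cxcr6* are higher in AA and AA+Ab than in Neg, *Lef1* and *Klf2* are highest in Neg, and *Gzmb* and *Havcr2* are lower in AA+Ab than in AA.

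Of the tissue residency genes, 5 of 11 measured were higher in AA than in Neg and none lower, with a median log2 ratio of 1.48. *Itgae*, the CD103 integrin chain that binds E-cadherin on epithelium, was at 106 CPM in Neg, 609 in AA and 537 in AA+Ab. It was thus 5.74 times higher in AA than in Neg (2.62 to 15.7), while the AA and AA+Ab levels lay close together (ratio 0.881, 0.738 to 1.05). *Cxcr6*, a chemokine receptor of resident T cells, was at 177, 893 and 508 CPM, 5.05 times higher in AA than in Neg (2.73 to 10.6) and 0.569 of the AA level in AA+Ab (0.478 to 0.675). *Itga1*, the CD49a chain that binds collagen, was at 53.1, 215 and 112 CPM, with a ratio of 4.05 between AA and Neg (1.36 to 19.8). *Rgs2*, which dampens receptor signals, was at 212, 664 and 574 CPM, and the transcription factor *Bhlhe40* at 106, 296 and 240 CPM. *Cd69*, which blocks the egress receptor S1PR1, was at 425, 815 and 799 CPM, just short of 2-fold. *Runx3*, the CD8 lineage factor, was at 248, 326 and 178 CPM. None of the 11 residency genes measured between AA+Ab and AA was higher, *Notch1* was lower, at 34.3 against 70.8 CPM, and the list's median was -0.30. *Zfp683* (Hobit), a residency factor, had only 0, 3 and 1 UMIs. The summed residency list was at 2052, 5465 and 4548 CPM in CD8 T cells. In gamma-delta T cells it was at 5189, 5595 and 5166 CPM.

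*Cd101*, a surface protein found on resident T cells, was at 35.4, 225 and 206 CPM, with a ratio of 6.36 between AA and Neg (1.74 to 52.9). Among adhesion genes, *Cd44*, the hyaluronan receptor of antigen-experienced T cells, was at 159, 1045 and 639 CPM, 6.57 times higher in AA than in Neg (3.44 to 14.4). *Itga4*, an integrin chain used to leave the blood, was lower at 248, 75.4 and 53.0 CPM, and the other 5 measured were not past 2-fold. Of 8 measured between AA+Ab and AA, only *St3gal4* passed, and it was lower, with a median of -0.50. Of the T cell genes outside the gate, *Lck*, *Themis* and *Cd6* were higher in AA than in Neg among 17 measured (median 0.60), and none of 18 passed between AA+Ab and AA (median -0.24).

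Genes of naive and circulating T cells had the reverse pattern: 5 of 7 measured were lower in AA than in Neg and 1 higher, with a median log2 ratio of -2.36. *Lef1*, a transcription factor of naive and memory T cells, was at 655 CPM in Neg, 59.4 in AA and 287 in AA+Ab. The AA level was 0.0908 of Neg (0.0584 to 0.142), and AA+Ab was 4.83 times AA (3.4 to 6.92), so AA+Ab lay between the others. CD4 T cells had the same order, with *Lef1* at 1278, 136 and 294 CPM. *Lef1* UMIs were found in 45.5%, 8.79% and 29.8% of CD8 T cells, against 9.15%, 5.95% and 8.67% of the deeper keratin-expressing cells. In AA these shares lay close together. The summed list was at 5112, 2126 and 3103 CPM in CD4 T cells, against 4706, 1223 and 1903 CPM in CD8 T cells. *Klf2*, which drives the egress and homing receptors, was at 1398, 273 and 368 CPM, 0.195 of Neg in AA (0.151 to 0.255). *Klf2* UMIs were found in 90.9%, 26.4% and 36.8% of CD8 T cells, against 21.5%, 27.8% and 25.9% of keratin-expressing cells. Its AA share was thus not above that of keratin-expressing cells. *Satb1*, a chromatin organiser, was at 672, 131 and 175 CPM, *Il7r*, the IL-7 receptor, at 885, 336 and 424 CPM, and *Klf3* at 230, 42.3 and 99.8 CPM. The homing receptors rested on few cells. *Ccr7*, the lymph node homing receptor, had 21, 15 and 23 UMIs in 4, 6 and 7 cells, or 372, 17.1 and 71.7 CPM, and its Neg level was not compared because it came from fewer than 5 cells. *S1pr1*, the receptor for exit to lymph, had 10, 6 and 15 UMIs.

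Between AA+Ab and AA, 5 of 11 measured genes of the list were higher and none lower, with a median of 0.60. *Ccr7* was 4.19 times higher (2.09 to 8.63), *S1pr1* 6.83 times (2.50 to 21.5), *Slamf6* 2.44 times (1.36 to 4.34) and *Klf3* 2.36 times (1.42 to 3.90). *Tcf7* (TCF-1), a factor of self-renewing T cells, was at 159, 118 and 178 CPM and not past 2-fold in either comparison. These levels came from small sets of cells: *Lef1* was found in 5, 16 and 17 cells.

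The genes were also counted cell by cell. At least 2 of the 3 circulating genes *Ccr7*, *Lef1* and *S1pr1* were found in 4 of 11 Neg cells, 4 of 182 AA cells (2.20%, 0.602 to 5.53) and 7 of 57 AA+Ab cells (12.3%, 5.08 to 23.7). At least 2 of the 4 residency genes *Itgae*, *Itga1*, *Cxcr6* and *Cd101* were found in 2, 149 and 45 cells, or 81.9% of the AA cells (75.5 to 87.2) and 78.9% of the AA+Ab cells (66.1 to 88.6). Both sets were met by 0, 2 and 1 cells and neither by 5, 31 and 6. The AA cells that met neither were shallow, with a median of 2636 UMIs against 4190 for those with residency genes only. Within the cells that had residency genes, *Lef1* was still 4.36 times higher in AA+Ab than in AA, while *Klf3* and *Slamf6* lost their call.

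**Figure D3:**
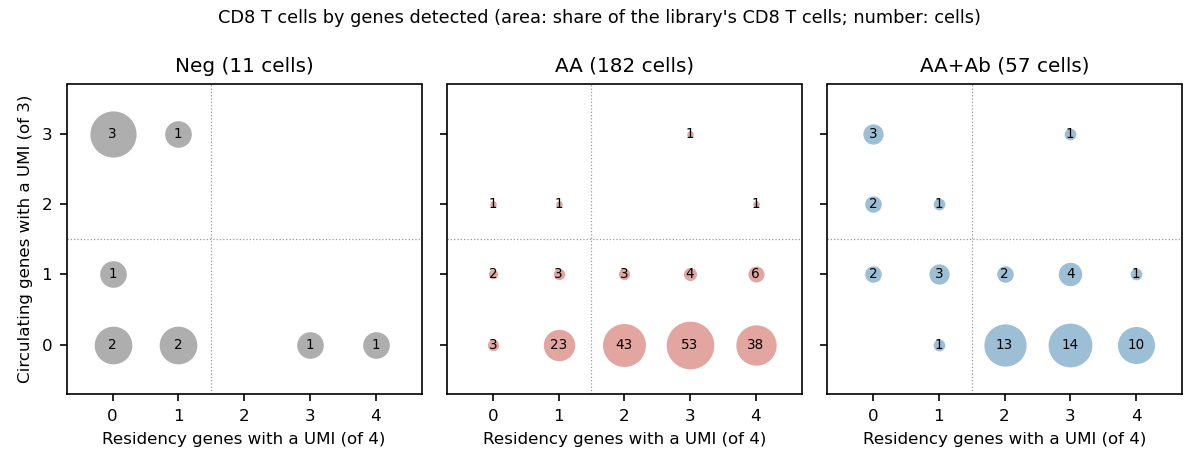
Each CD8 T cell by the number of residency genes (horizontal, of *Itgae*, *Itga1*, *Cxcr6* and *Cd101*) and of circulating genes (vertical, of *Ccr7*, *Lef1* and *S1pr1*) in which it had a UMI, 1 panel per library; circle area is the share of that library's CD8 T cells and the number printed is the count. Most Neg cells have 0 or 1 residency gene, most AA cells sit at the lower right, and so do most AA+Ab cells, with 7 at 2 or more circulating genes.

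Of the cytotoxic genes, 3 of 10 measured were higher in AA than in Neg and none lower, with a median log2 ratio of 0.95. *Gzmb*, the granzyme that triggers caspases in a target cell, was at 142 CPM in Neg (8 UMIs in 2 cells), 296 in AA (259 UMIs in 59 cells) and 99.8 in AA+Ab (32 UMIs in 17 cells). The AA level was 2.09 times that of Neg (1.05 to 4.89), and this call was lost in 6 of 16 other settings, for example at 1.70 with the changed denominator. AA+Ab was at 0.337 of AA (0.226 to 0.488), a difference kept under all 17 other settings run, from 0.258 to 0.457. *Gzma*, another granzyme, had 0, 163 and 100 UMIs, but in only 0, 14 and 3 cells. *Ctsw*, a granule protease, was at 212, 487 and 568 CPM, *Prf1* (perforin) at 35.4, 51.4 and 71.7 CPM and *Fasl* at 35.4, 86.8 and 81.1 CPM. In gamma-delta T cells *Prf1* was higher, at 389, 402 and 420 CPM, and *Gzmb* lower, at 7.78, 4.80 and 8.55 CPM. *Nkg7* was abundant in all 3 libraries, at 902, 1064 and 1242 CPM. Against AA, 2 of 11 were lower in AA+Ab, *Gzmb* and the granzyme inhibitor *Serpinb6b* (56.0 against 15.6 CPM), and the median was -0.10.

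A *Gzmb* UMI was found in 32.4% of AA and 29.8% of AA+Ab cells, against 0.230% and 0.0648% of keratin-expressing cells. At 1000 UMIs per cell the CD8 T cell shares were 14.4% and 5.26%. At least 2 of *Gzma*, *Gzmb*, *Prf1* and *Fasl* were found in 2, 40 (22.0%) and 10 cells (17.5%, 8.75 to 29.9). *Gzmk* had 2, 5 and 6 UMIs.

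Effector cytokine genes were higher in AA for 4 of 11 measured and lower for none, with a median of 0.63. *Ifng*, interferon gamma, was at 195, 618 and 580 CPM in Neg, AA and AA+Ab. It was 3.18 times higher in AA than in Neg (1.76 to 6.40), and AA+Ab was at 0.939 of AA (0.790 to 1.11). *Ifng* UMIs were found in 4 of 11, 119 of 182 (65.4%) and 32 of 57 cells (56.1%), against 0.0474%, 0.473% and 0.227% of keratin-expressing cells, whose median depths were 12984, 11291.5 and 11294 UMIs. At 1000 UMIs the shares in CD8 T cells were 18.2%, 30.9% and 21.1%. *Tnf* was at 177, 273 and 222 CPM and not past 2-fold. No UMI was found in Neg for *Il2* (0, 126 and 168 CPM), *Csf1*, a macrophage growth factor (0, 137 and 34.3 CPM), and *Tgfb1* (0, 224 and 162 CPM). Set against 3 UMIs in Neg they were at least 2.37, 2.58 and 4.22-fold higher in AA. *Csf1* was lower in AA+Ab than in AA, at 0.25 (0.122 to 0.464), as was *Tnfsf8* (CD30 ligand) at 0.333 (0.103 to 0.842), 2 of 11 measured. *Il17a* and *Il22* had at most 7 UMIs in any library and *Il21* none.

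The chemokines were led by *Ccl5* (RANTES), which was high in all 3 libraries at 4123, 4662 and 3806 CPM. *Ccl4* (MIP-1 beta), which attracts T cells and macrophages, was at 425, 1520 and 1547 CPM, 3.58 times higher in AA than in Neg (2.40 to 5.61) and level between AA and AA+Ab (1.02, 0.917 to 1.13). *Ccl3*, its close relative, was at 17.7, 322 and 165 CPM, with a ratio of 18.2 against a single Neg UMI (3.24 to 722) and 0.513 between AA+Ab and AA (0.375 to 0.690). In all 3 of 5 measured were higher in AA than in Neg, *Ccl1* being the third, with a median of 1.05, and none of 4 passed 2-fold between AA+Ab and AA. *Xcl1*, which attracts cross-presenting dendritic cells, was at 159, 265 and 412 CPM, with 78 of its 132 AA+Ab UMIs in 1 cell. That cell also held all 214 *Ccl1* UMIs of AA+Ab, and *Ccl1* in AA came from 6 cells with 62 of 96 UMIs in 1 of them.

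Receptors for chemokines are of interest because the antibody binds CXCL12. *Cxcr4*, the CXCL12 receptor, was at 336 CPM in Neg (19 UMIs in 5 of 11 cells), 68.6 in AA (60 UMIs in 33 of 182 cells) and 150 in AA+Ab (48 UMIs in 25 of 57 cells). It was lower in AA than in Neg, at 0.204 (0.120 to 0.362), and higher in AA+Ab than in AA, at 2.18 times (1.46 to 3.25). Among only the cells with at least 2 residency genes the latter ratio was 1.78, under 2-fold. *Cxcr4* was detected in 45.5%, 18.1% and 43.9% of CD8 T cells, against 1.07%, 0.875% and 1.07% of keratin-expressing cells. At 1000 UMIs the CD8 T cell shares were 18.2%, 6.63% and 15.8%. *Ackr3*, the other CXCL12 receptor, had 0, 6 and 1 UMIs. *Cxcr3*, the receptor for the interferon-induced chemokines, had 6, 49 and 20 UMIs, or 106, 56.0 and 62.4 CPM, with a ratio of 1.11 between AA+Ab and AA (0.628 to 1.91). *Ccr8* was at 17.7, 96.0 and 119 CPM and *Cx3cr1* at 35.4, 99.4 and 103 CPM. Of 5 receptor genes measured between AA and Neg, *Cxcr6* was higher and *Cxcr4* lower, with a median of 1.49. Of 9 measured between AA+Ab and AA, *Cxcr4*, *S1pr1* and *Ccr7* were higher and none lower, with a median of 0.16.

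Natural killer receptors were present in all 3 libraries. Their summed level was 1777, 1746 and 1668 CPM in gamma-delta T cells, and 1663, 1912 and 1750 CPM in CD8 T cells. *Klrk1*, which encodes NKG2D, was at 230, 375 and 352 CPM, a ratio of 1.63 between AA and Neg (0.940 to 3.09) and 0.941 between AA+Ab and AA (0.753 to 1.17). Its partner chain *Hcst* (DAP10) was at 708, 377 and 378 CPM. *Klrd1* (CD94) was at 159, 247 and 168 CPM, the inhibitory *Klrc1* (NKG2A) at 159, 198 and 125 CPM and the activating *Klrc2* (NKG2C) at 106, 202 and 106 CPM. At least 2 of *Klrk1*, *Klrd1*, *Klrc1* and *Klrc2* were found in 3, 117 (64.3%, 56.9 to 71.2) and 31 cells (54.4%, 40.7 to 67.6). Of 9 measured between AA and Neg only *Cd244a* (2B4) was higher, at 111 against 17.7 CPM, and the median was 0.63. Between AA+Ab and AA, *Cd160* was higher (140 against 62.8 CPM, ratio 2.23, 1.47 to 3.37), and so was *Crtam*, of which 1 cell held 50 of 56 AA+Ab UMIs. The median of the 9 was -0.18.

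Checkpoint and activation genes were higher in AA than in Neg for 7 of 9 measured and lower for none, with a median of 1.70. The 7 were *Icos* (354, 745 and 571 CPM), *Tox* (70.8, 289 and 334), *Nr4a2* (124, 556 and 331), *Nr4a3* (142, 459 and 225), *Tnfrsf9* or 4-1BB (17.7, 133 and 125), *Cd101* and *Havcr2*. *Havcr2*, the inhibitory receptor TIM-3, had 0, 99 and 4 UMIs, or 0, 113 and 12.5 CPM. It was at least 2.13-fold higher in AA than in Neg, a bound that fell to between 1.70 and 1.95 in 5 of 16 settings, and in AA+Ab it was at 0.110 of AA (0.0295 to 0.292). *Havcr2* was found in 35 AA cells (19.2%) and 3 AA+Ab cells (5.26%), against 0.301% and 0.373% of keratin-expressing cells, and in none of the 11 Neg cells, which allows a share of cells with a UMI of up to 27.3% (3 of 11) and sets no limit on cells that express the gene. *Pdcd1*, which encodes PD-1, was at 70.8, 133 and 56.1 CPM, 0.424 of AA in AA+Ab (0.243 to 0.700). *Pdcd1* and *Havcr2* were found together in 0, 21 and 1 cells, and at least 2 of *Pdcd1*, *Havcr2* and *Ctla4* in 2, 34 (18.7%, 13.3 to 25.1) and 4 cells (7.02%, 1.95 to 17.0).

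Other inhibitory receptors did not follow *Havcr2* and *Pdcd1*. *Ctla4* was at 265, 199 and 312 CPM, and *Tigit* was higher in AA+Ab than in AA, at 56.1 against 16.0 CPM (ratio 3.51, 1.65 to 7.63). *Lag3* had 0, 3 and 3 UMIs. Between AA+Ab and AA, 1 of 10 checkpoint genes was higher and 3 lower, the third being *Nr4a3*, whose call was lost in 6 of 17 settings. The median of the 10 was -0.26. In the cells with at least 2 residency genes *Pdcd1* in AA+Ab was at 0.511 of AA, just short of 2-fold.

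Among lineage transcription factors, 5 of 10 measured were higher in AA than in Neg and *Bach2* lower, with a median of 1.46. *Tbx21* (T-bet), which drives *Ifng*, was at 53.1 CPM in Neg, 555 in AA and 253 in AA+Ab. It was 10.5 times higher in AA than in Neg (3.56 to 50.9), where it came from 3 UMIs of 1 cell, and AA+Ab was at 0.455 of AA (0.355 to 0.577). *Tbx21* UMIs were found in 1, 144 (79.1%) and 35 cells (61.4%), against 0.237%, 0.789% and 0.356% of keratin-expressing cells. *Ikzf3* (Aiolos) was at 124, 793 and 636 CPM, *Irf4*, induced by receptor signals, at 17.7, 178 and 137 CPM, and *Gata3* at 0, 167 and 93.6 CPM. *Eomes*, the relative of T-bet, had 1, 2 and 5 UMIs. Between AA+Ab and AA, *Id3*, a memory factor, was higher (125 against 48.0 CPM, ratio 2.60, 1.64 to 4.11), while *Tbx21*, *Zeb2*, an effector factor (106 against 269 CPM, 0.395, 0.267 to 0.568), and *Ikzf2* were lower, and the median was -0.61. The *Tbx21* and *Zeb2* ratios rose to 0.547 and 0.585 once cells in cycle were left out, and *Ikzf2* lost its call in 10 of 17 settings.

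Cytokine receptors are the start of the JAK-STAT route, through which the IL-2 family and the interferons act. *Il2ra*, the high-affinity IL-2 receptor chain, was at 0, 199 and 112 CPM, at least 3.75-fold higher in AA than in Neg, and *Il21r* was at 88.5, 334 and 187 CPM (3.77, 1.60 to 11.7). *Il18r1* was at 177, 482 and 427 CPM and *Tgfbr2* at 177, 374 and 215 CPM, so that 4 of 14 measured were higher in AA, none lower, and the median was 0.71. *Il2rb*, shared by the IL-2 and IL-15 receptors, was at 212, 326 and 222 CPM, and the common chain *Il2rg* at 372, 381 and 284 CPM. *Il15ra* had 0, 24 and 1 UMIs and was the 1 of 17 lower in AA+Ab than in AA (0.114, 0.00277 to 0.698), with a median of -0.39.

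*Jak1* was at 761, 575 and 596 CPM and *Jak3* had only 3, 13 and 3 UMIs. *Stat3* was at 212, 502 and 203 CPM, 2.36 times higher in AA than in Neg (1.34 to 4.61) and 0.404 of AA in AA+Ab (0.307 to 0.526). *Stat4*, the IL-12 signal carrier, was at 584, 181 and 87.3 CPM, at 0.309 of Neg in AA (0.211 to 0.465) and 0.484 of AA in AA+Ab (0.312 to 0.727). *Stat5b* was at 531, 210 and 212 CPM. Of 14 JAK-STAT genes measured between AA and Neg, 3 were higher (*Stat3*, *Cish* and *Pim1*) and 3 lower (*Stat4*, *Stat5b* and *Socs3*), with a median of 0.49. Of 15 between AA+Ab and AA, *Stat3*, *Stat4* and *Stat5a* were lower and none higher, with a median of -0.60. With cells of up to 5% keratin UMIs included, the AA+Ab over AA ratio of *Stat3* was 0.717.

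Interferon response genes were not past 2-fold in either direction among the 10 measured between AA and Neg, and their median was 0.14. *Psmb8*, an immunoproteasome subunit, was at 283, 319 and 293 CPM, *Irf1* at 142, 123 and 84.2 CPM and *Gbp4* at 35.4, 42.3 and 31.2 CPM. Of 13 between AA+Ab and AA, *Irf7* was higher on 10 UMIs in each library and *Isg15* lower on 23 and 2 UMIs, with a median of -0.44.

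*Ripk1*, the kinase that stands between TNF receptor signals and cell death, had 3, 43 and 13 UMIs in CD8 T cells, or 53.1, 49.1 and 40.6 CPM. It was found in 2 of 11, 29 of 182 (15.9%) and 11 of 57 (19.3%) cells, against 32.4%, 37.9% and 39.3% of the deeper keratin-expressing cells. The AA+Ab over AA ratio was 0.825 (0.407 to 1.56), and AA against Neg had too few cells for the comparison. *Ripk3* had 1, 6 and 2 UMIs and *Mlkl* 0, 1 and 0. Of 9 genes of the TNF receptor list measured between AA and Neg, *Tnfrsf1b* (TNFR2; 124, 331 and 256 CPM), *Birc3* (88.5, 275 and 162 CPM) and *Tnfaip3* (A20; 619, 1296 and 933 CPM) were higher and none lower, with a median of 0.80. Of 11 between AA+Ab and AA, only *Cflar*, an inhibitor of caspase-8, was lower (89.1 against 37.4 CPM), with a median of -0.47.

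Immediate-early and heat shock genes, which tissue digestion can also induce, were higher in AA than in Neg for 7 of 12 and lower for none, with a median of 1.41. *Fosb* was at 88.5, 491 and 421 CPM, *Nr4a1* at 177, 538 and 480 CPM and *Hspa1a* at 106, 361 and 175 CPM. *Atf3*, *Hspa1a* and *Hspa1b* were lower in AA+Ab than in AA, 3 of 12, with a median of -0.18. These genes moved with *Nr4a2*, *Nr4a3* and *Ifng* against Neg, and their part in those differences was not tested.

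Cell cycle genes were mostly higher in AA+Ab than in AA. Of 17 measured, 12 were higher in AA+Ab than in AA and none lower, with a median of 1.19, and 1 of 11 was higher in AA than in Neg, with a median of 0.30. *Mki67* was at 0, 93.7 and 203 CPM (2.16, 1.54 to 3.03, AA+Ab over AA), *Top2a* at 0, 84.5 and 193 CPM (2.29, 1.61 to 3.25), *Birc5* at 0, 21.7 and 93.6 CPM (4.31, 2.35 to 8.11) and *Stmn1* at 88.5, 279 and 568 CPM. These levels came from few cells: at least 2 of *Mki67*, *Top2a*, *Cdk1*, *Ccnb1*, *Birc5* and *Cenpf* were found in 0, 15 (8.24%, 4.69 to 13.2) and 10 cells (17.5%, 8.75 to 29.9), and the intervals of AA and AA+Ab overlap. Without predicted doublets the *Mki67* ratio was 1.88, and with cells of up to 5% keratin UMIs 1.68. Its call was also lost without its top cell and as a mean over cells. That top cell held 20 of 65 AA+Ab UMIs. *Mki67* UMIs were found in 17.0% of AA and 19.3% of AA+Ab CD8 T cells. *Pcna*, of DNA replication, was at 106, 112 and 90.5 CPM. The summed level of the list was 3004 CPM in AA+Ab against 1476 in AA. It was higher in AA+Ab in other cells too, at 3389 against 2021 CPM in CD4 T cells. In gamma-delta T cells it was at 3440 against 2225 CPM, and in keratin-expressing cells at 1892 against 1483 CPM.

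Glycolysis genes were mostly level, with *Slc2a3* (GLUT3) the 1 of 11 higher in AA than in Neg (35.4, 146 and 128 CPM; median 0.52). *Fabp5*, a fatty acid carrier used by resident T cells, was at 124, 177 and 484 CPM. It was the 1 of 11 higher in AA+Ab than in AA (2.73, 2.17 to 3.43), with a median of -0.24. In AA+Ab its level was 0.284 of that in CD4 T cells, and less than 2 times that in all cells other than CD8 T cells.

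Beyond the lists, the genes with the firmest differences were picked by the bound of their interval nearest to 1, among genes at least 2 times as high in CD8 T cells as in the other cells of the library. *Gadd45b*, a stress gene induced by receptor signals, was at 35.4 CPM in Neg, 1165 in AA and 749 in AA+Ab, 32.9 times higher in AA than in Neg (9.09 to 272). *Sema6d*, a semaphorin, was at 0, 538 and 206 CPM, and *Cd40lg*, the CD40 ligand, at 0, 298 and 200 CPM, at least 10.1 and 5.62-fold higher in AA. *Rora*, a nuclear receptor of innate-like and resident lymphocytes, was at 336 CPM in Neg and 1982 in AA (5.90, 3.76 to 9.82), *Samsn1* at 35.4 and 494 CPM, and *Nfkbid* at 35.4 and 470 CPM. Among the lower genes, *Bcl2*, which keeps lymphocytes alive, was at 849, 112 and 206 CPM, 0.132 of Neg in AA (0.0924 to 0.190). *Gimap6*, of a GTPase family needed for lymphocyte survival, was at 566, 66.3 and 131 CPM, and *Txk*, a kinase of the Tec family, at 354, 57.1 and 96.7 CPM.

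Between AA+Ab and AA the same rule named *Sidt1* (566 CPM in Neg, 33.1 in AA and 140 in AA+Ab; 4.24, 2.60 to 7.01) and *Bambi* (14.9 against 109 CPM; 7.35, 3.79 to 15.1) beside *S1pr1*, *Ccr7*, *Tigit*, *Cd160* and *Cxcr4*. The lower genes were headed by *H2-Aa*, *Cd74*, *H2-Ab1* and *H2-Eb1*, MHC class II genes of antigen-presenting cells. *Cd74* was at 0, 556 and 62.4 CPM, and 67.4% of its 487 AA UMIs lay in 1 cell, the cell with most macrophage UMIs. *Alcam*, an adhesion protein, was at 256 against 43.7 CPM (0.171, 0.0918 to 0.292). *Il1rl1*, the IL-33 receptor, had 28 UMIs in AA and none in AA+Ab, which puts it at no more than 0.293 of AA against 3 UMIs.

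**Figure D4:**
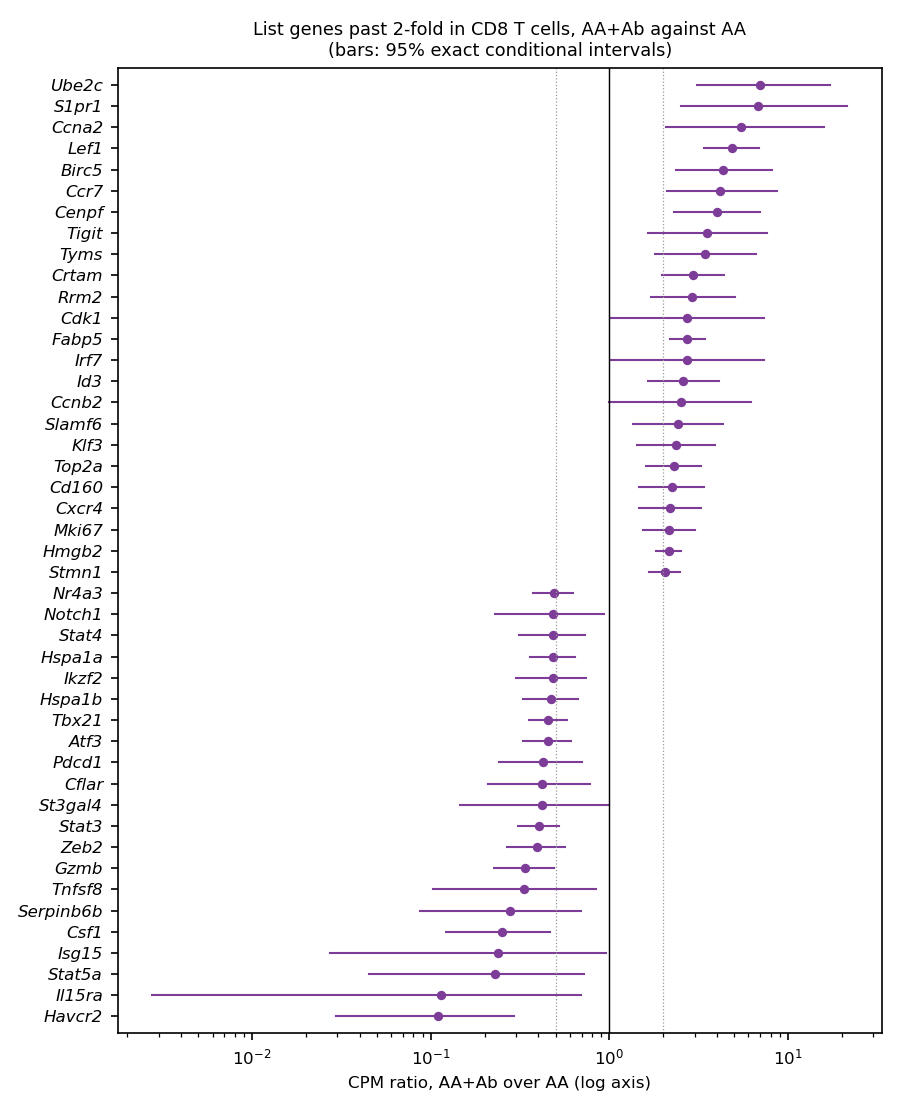
Ratio of CPM in CD8 T cells, AA+Ab over AA, on a log axis, for the 45 genes past 2-fold outside the marker lists of other cell types; points are ratios, bars are 95% exact conditional intervals, and dotted lines mark 2-fold either way. *Ube2c* (6.98), *S1pr1* (6.83) and *Lef1* (4.83) are among the highest and *Havcr2* (0.110) is the lowest of those plotted.

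How firmly these differences stand varied. Of the list genes called, 21 of 69 between AA and Neg and 16 of 56 between AA+Ab and AA kept their call in every setting in which they could be measured. *Itgae*, *Cxcr6*, *Ifng* and *Tbx21* lost theirs against Neg only when cells were thinned to 1000 UMIs, at which 2 Neg members remained. The *Itgae* ratio was then 1.20 (0.206 to 48.1), and *Cxcr6*, *Ifng* and *Tbx21* had no UMI left in Neg to compare with. With mitochondrial, ribosomal, hemoglobin and keratin genes out of the denominator, *Gzmb*, *Ctsw*, *Havcr2*, *Icos*, *Il2*, *Ccl1*, *Cd244a*, *Stat3*, *Cish*, *Pim1*, *Tgfbr2*, *Tnfaip3*, *Slc2a3* and *Lck* were among the genes whose call against Neg was lost. With cells of up to 5% keratin UMIs included, *Cxcr4*, *Cd160*, *Id3*, *Klf3*, *Stat3*, *Notch1*, *Mki67*, *Top2a* and *Birc5* were among those whose call between AA+Ab and AA was lost.

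Against Neg, the AA+Ab cells also had more residency transcript and less of the circulating genes. Residency genes were higher for 4 of 9 and lower for none (median 1.18), with *Itgae* at 5.05 times Neg (2.28 to 14.0) and *Cxcr6* at 2.87 (1.52 to 6.11). Naive and circulating genes were lower for 5 of 8 and higher for none, with *Lef1* at 0.438 (0.296 to 0.661) and *Klf2* at 0.263 (0.196 to 0.355). *Ifng* was 2.98 times higher (1.63 to 6.08), *Ccl4* 3.64 times (2.42 to 5.74) and *Tbx21* 4.76 times (1.57 to 23.6), and *Il2* at least 3.17-fold. Effector cytokines were higher for 3 of 5 (median 1.58), chemokines for 3 of 4 (1.62), checkpoint genes for 4 of 7 (1.42), transcription factors for 3 of 8 (1.98) and cell cycle genes for 5 of 11 (1.04), with none lower in these lists. *Cxcr4* was lower in AA+Ab than in Neg too, at 0.445 (0.257 to 0.802). *Ctla2a*, a protease inhibitor gene of activated lymphocytes, was at 177 CPM in Neg and 1057 in AA+Ab (5.98, 3.21 to 12.6), and *Itgav* at 53.1 and 440 CPM (8.29, 2.78 to 40.7).

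The CD4 T cells of the same skin served as a reference from the same libraries and digestion. They were deeper, with medians of 5183 against 3888.5 UMIs in AA and 4550.5 against 4233 in AA+Ab. In AA, 401 of 5687 genes were higher in CD8 than in CD4 T cells (7.05%) and 237 lower (4.17%), with a median log2 ratio of 0.15. In AA+Ab it was 327 of 4683 (6.98%) and 286 (6.11%), with a median of 0.02. Cytotoxic genes were higher for 7 of 12 in AA (median 2.34) and 7 of 9 in AA+Ab (3.34). Natural killer receptors were higher for 7 of 9 in both (3.73 and 3.54), and *Klrg1* was lower in AA+Ab, at 0.120. Chemokines were higher for 4 of 4 in both (3.4 and 6.0): *Ccl3*, *Ccl4* and *Ccl5*, with *Ccl1* in AA and *Xcl1* in AA+Ab. In AA, *Xcl1* and *Gzmc* were higher in CD4 T cells, at 527 and 973 CPM against 265 and 29.7, but missed the cell minimum. That minimum was harder to meet for genes higher in CD4 T cells (26 and 44 cells) than in CD8 T cells (182 and 57).

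**Figure D5:**
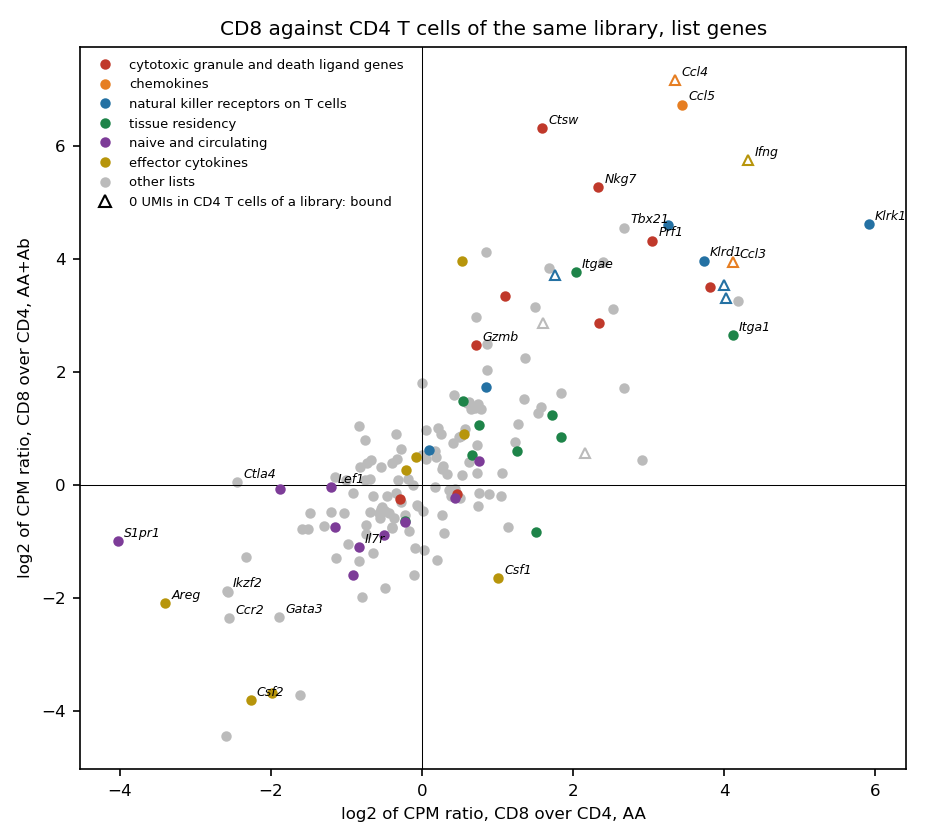
Log2 of the CPM ratio of CD8 over CD4 T cells in AA (horizontal) and in AA+Ab (vertical) for the 172 list genes measured in both, coloured by list; triangles are bounds for genes with 0 UMIs in the CD4 T cells of a library. *Ccl5*, *Ifng* and *Klrk1* lie at the upper right, and *Areg*, *Csf2*, *Gata3* and *Ikzf2* at the lower left.

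*Ccl5* was at 4662 CPM in CD8 and 428 in CD4 T cells of AA, 10.9 times higher (8.59 to 14.0), and at 3806 against 35.8 CPM in AA+Ab, 106 times (57.6 to 222). *Klrk1* was at 375 against 6.2 CPM in AA, a single CD4 UMI, and at 352 against 14.3 CPM in AA+Ab (24.6, 9.35 to 91.8). *Ifng* was at 618 against 31.0 CPM in AA, 19.9 times higher (8.49 to 61.7), and at 580 against none in AA+Ab. *Nkg7* was 5.05 times higher (3.59 to 7.33) and 38.5 times (20.1 to 84.8). *Tbx21* was 6.40 times higher (3.78 to 11.8) and 23.5 times (7.76 to 116). *Gzmb* was at 296 against 180 CPM in AA, not past 2-fold (1.65, 1.12 to 2.51), and at 99.8 against 17.9 CPM in AA+Ab, 5.57 times (2.16 to 18.3). The CD4 side of these ratios rests on 26 and 44 cells, and their size moved with the setting. The *Ccl5* ratio in AA+Ab was at least 16.6 at 1000 UMIs per cell, 334 as a mean over cells, 811 without its top cell and 883 without predicted doublets, and in AA it was between 3.11 and 25.0. At 1000 UMIs the calls of *Ifng*, *Klrk1* and *Tbx21* in AA were lost, at 1.45, 3.80 and a bound of at least 1.42, and without the top cell *Ifng* was at 82.3, *Klrk1* at 18.5 or more and *Tbx21* at 25.7. *Nkg7* in AA+Ab was at least 6.86 at 1000 UMIs and 104 without its top cell.

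Residency genes were higher in CD8 than in CD4 T cells for 6 of 11 in AA (median 1.26) and 5 of 10 in AA+Ab (0.95), with *Itgae* at 4.09 (2.72 to 6.45) and 13.6 times (7.42 to 27.8) and *Itga1* at 17.3 (4.73 to 144) and 6.27 times (2.45 to 20.5). *Cxcr6* was nearer, at 1.58 (1.27 to 1.99) and 1.45 times (1.12 to 1.88). *Runx3* was 3.28 (1.99 to 5.82) and 2.36 times higher (1.41 to 4.10). Naive and circulating genes were lower for 4 of 10 in AA (median -0.87) and 3 of 11 in AA+Ab (-0.75), where *Ccr7* was at 0.318 (0.188 to 0.520) and *Lef1* level at 0.977 (0.717 to 1.33).

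Genes lower in CD8 than in CD4 T cells of both libraries included *Gata3*, of type 2 helper cells (0.269 and 0.198), *Ikzf2* (Helios; 0.167 and 0.272), *Ccr2* (0.171 and 0.195), *Csf2* or GM-CSF (0.207 and 0.0711) and *Areg* (0.0946 and 0.235). *Ctla4* was at 0.183 in AA (0.148 to 0.227) and at 1.04 in AA+Ab (0.768 to 1.40), and *Csf1* at 2.01 (1.08 to 4.14), a call lost in several settings, and 0.319 (0.144 to 0.655). Interferon response genes were lower for 5 of 11 in AA (median -0.63), with *Ifi27l2a* at 233 against 1382 CPM, and for 2 of 7 in AA+Ab (-0.01). The effector cytokine list divided, with 3 higher and 3 lower of 11 in AA (*Ifng*, *Tnfsf14* and *Csf1* against *Csf2*, *Areg* and *Tnfsf8*), and 2 and 4 of 9 in AA+Ab.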

How the data were processed

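The authors deposited 3 filtered gene by barcode matrices of UMI counts, 1 per library, made with Cell Ranger 7.2.0 on mm10 according to the submitters' processing notes; libraries were Chromium Next GEM 3′ v3.1, so counts are not scaled by gene length. The annotation release and the intron setting are not given in the sources used here. Of 6965, 10879 and 10507 barcodes, those with at most 10% mitochondrial UMIs and at least 200 genes were kept. The 32285 features held 40 duplicated symbols. Features of 1 symbol were summed for the levels of list genes, but stayed separate in the comparisons over all genes. No per-sample column was left unmatched.

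UMIs were summed over CD8 T cells per library and scaled to CPM with Python 3.11.15, numpy 2.4.6, scipy 1.17.1 and pandas 2.3.3 (figures, matplotlib 3.10.9). Intervals were Poisson for levels, exact conditional for ratios and Clopper-Pearson for shares, all at the 95% level. Genes at 0 in a library were set against 3 UMIs in it. No test between groups was possible with 1 library each. The ratio step was tested on simulated data.

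The members, the 30 gene lists (326 of 327 genes found; a few other list genes are not reported here) and the rules were chosen with earlier results of these data known. Named genes were those of the lists and, per comparison, 12 past 2-fold in each direction. These 12 had the highest lower limit of the ratio among higher genes, or the lowest upper limit among lower genes. They were not gate, mitochondrial, ribosomal or hemoglobin genes, and were at least 2 times the level of other cells. Where these are numerous only some are named. *Trbc1* shares near-identical sequence with *Trbc2* and is read with caution.

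Alternatives changed the gate (3 receptor genes, 2 *Cd8* UMIs, keratin under 0.5% or 5%, mitochondrial at most 5%), removed predicted doublets (0.8% per 1000 barcodes, scikit-learn 1.9.0; doublets stay in the main values, 0, 9 and 3 of the members), thinned cells to 1000 UMIs, or changed the denominator, filter, fold or averaging. Leaving out cells with myeloid genes, cells in cycle or shared barcodes, and keeping only cells with residency genes, were added after seeing the data.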

Additional observations from a re-analysis of the deposited data

How the results depend on the processing

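No paired analysis was possible because each group is 1 library and shares no replicate number with another. Counts of genes past 2-fold are given in the order AA higher and lower than Neg (394 and 138), AA+Ab higher and lower than AA (258 and 319), AA+Ab higher and lower than Neg (243 and 92), CD8 higher and lower than CD4 in AA (401 and 237) and in AA+Ab (327 and 286). Thinning to 1000 UMIs left 5, 0, 26, 48, 4, 0, 23, 16, 29 and 17. The denominator without mitochondrial, ribosomal, hemoglobin and keratin genes gave 225, 255, 147 and 148 against Neg. A minimum of 40 UMIs gave 124 for AA+Ab higher than AA, and 186 and 167 for CD8 against CD4 in AA+Ab. With the low-count filter off, lower counts were 245, 177, 406 and 484 for AA over Neg, AA+Ab over Neg and CD8 over CD4 in AA and AA+Ab, and 501 were higher in AA+Ab than AA. A 1.5-fold limit gave 222 lower in AA than Neg, 446 higher and 595 lower in AA+Ab than AA, 160 lower in AA+Ab than Neg and 404 lower in CD8 than CD4 of AA. Leaving out each gene's top cell gave 69, 129, 48 and 130 for lower in AA than Neg, higher in AA+Ab than AA, lower in AA+Ab than Neg and lower in CD8 than CD4 of AA. Mean CPM over cells gave 1131 and 386 for AA over Neg, 579 lower in AA+Ab than AA, 730 higher in AA+Ab than Neg, 957 and 450 for CD8 over CD4 in AA and 507 higher in AA+Ab. Without cells in cycle, 125 genes were higher in AA+Ab than AA, and the *Mki67* ratio, which those cells define, turned from 2.16 to 0.442. The CD8 share in AA was 1.45% with at least 2 *Cd8* UMIs and 0.889% thinned, against 0.289% in AA+Ab and 0.0318% in Neg when thinned. Of the settings that moved these values, those that thin cells or raise minimums measure fewer genes or UMIs by construction; for the others the cause was not tested. The 11 Neg cells, and 26 and 44 CD4 T cells, limit every ratio that uses them.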

Other observations

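A gamma chain gene, *Tcrg-C2*, had UMIs in 2 of 11 Neg, 59 of 182 AA (32.4%) and 13 of 57 AA+Ab CD8 T cells, against 0.498%, 0.258% and 0.356% of keratin-expressing cells, although the gate left out cells with *Trdc*. Gamma-delta genes summed to 88.5, 193 and 81.1 CPM in the CD8 T cells and to 1073, 864 and 1031 CPM in the gamma-delta T cells. *Tcrg-C2* alone was at 53.1, 125 and 59.3 CPM in CD8 T cells and at 145, 122 and 148 CPM in gamma-delta T cells. In AA CD4 T cells it was at 12.4 CPM. *Tcrg-C1*, *Tcrg-C4* and *Trdv4* were at 10.3, 56.0 and 2.29 CPM in AA CD8 T cells, against 311, 160 and 272 CPM in AA gamma-delta T cells. *Gzmc*, of a granzyme cluster, had 608 UMIs in AA+Ab, all in 1 cell, and 26 UMIs in 3 AA cells. The 3 melanocyte genes measured between AA+Ab and AA, *Pmel*, *Dct* and *Mlana*, were all higher in AA+Ab, although *Pmel* lost its call in 7 of 17 settings. The summed level of melanocyte genes was also higher in AA+Ab than in AA in the other cells, at 136 against 65.2 CPM in keratin-expressing cells, 333 against 124 in CD4 T cells and 207 against 112 in gamma-delta T cells. Variable beta chain genes were found in 0, 13 and 10 CD8 T cells, from 7 genes each in AA and AA+Ab. *Trbv19*, in 4 AA and 2 AA+Ab cells, was the most frequent in AA, and no clone can be read from counts of this kind.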
